A study of Mus musculus with 22 samples.

Results

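Colon tumours with a high level of Lgr5 were compared with colon tumours with a low level of it, across every other gene on the array. Lgr5 encodes a leucine-rich repeat receptor of the intestinal crypt. All 22 tumours of the series were ranked by the log2 level of Lgr5, the value that the members were chosen by, and the 7 highest formed the Lgr5-high side and the 7 lowest the Lgr5-low side, so 14 of 22 tumours were compared and 8 lay in the middle. The sides were set by a measured level and not by a treatment. Lgr5 is therefore described without a test, and only the other genes were tested.

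The tumours were induced with azoxymethane, a carcinogen that acts on the rodent colon, in male mice of the inbred strain FVB/N, and each came from a mouse of its own (1 is titled Mouse_X, without a number). Fat supplied 10% of the calories for the 6 control mice and 60% for the 5 obese mice, and neither group had sulindac. Another 6 obese mice on the fat-rich diet received sulindac, a non-steroidal anti-inflammatory drug. In the 5 formerly obese mice the fat-rich diet was replaced by the low-fat one, without sulindac. The labels used here give no ages, carcinogen doses or numbers of tumours per mouse. Each tumour was measured on 1 Clariom S array as log2 levels of 22203 probe sets, with array medians of 6.67 to 6.83, and the small number of arrays sets the precision of the differences. Epcam, which encodes an adhesion protein of epithelial cells, lay between 16.67 and 17.43 in all 14 tumours, so epithelium was present on both sides.

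Lgr5 marks the dividing stem cells at the base of intestinal crypts. The protein binds R-spondins, secreted proteins that keep the ubiquitin ligases Rnf43 and Znrf3 from removing WNT receptors from the cell surface, and Lgr5 is itself a target of WNT and beta-catenin signalling. As cells leave the crypt base they normally lose Lgr5 and acquire the microvilli, transporters and enzymes of absorptive colonocytes, or the mucins of goblet cells. BMP signals from the surrounding stroma favour that maturation, and BMP antagonists such as gremlin oppose it.

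Lgr5 levels formed a wide range without a gap at the upper boundary. On the high side they were 14.12 and 13.13 in the control tumours of Mouse_26 and Mouse_17. The obese tumours there lay at 13.69 (Mouse_113), 12.07 (Mouse_101) and 12.01 (Mouse_96). The formerly obese tumour of Mouse_140 lay at 12.09 and the obese sulindac tumour of Mouse_114 at 12.08. Thus 3 tumours stood above 13 and the other 4 were almost level with each other. On the low side the obese sulindac tumours lay at 9.38 (Mouse_131), 9.22 (Mouse_125) and 9.18 (Mouse_129). The formerly obese tumours were at 9.36 (Mouse_134), 8.46 (Mouse_152) and 7.96 (Mouse_150), and the control tumour of Mouse_27 was at 8.04. The side means were 12.74 ± 0.89 and 8.80 ± 0.63 (SD, n = 7 each), 3.94 log2 units apart. The last tumour inside the high side, at 12.01, was followed by the obese tumour of Mouse_107 at 11.95, only 0.06 lower. The first tumour inside the low side, at 9.38, was preceded by the control tumour of Mouse_20 at 10.50, which is 1.12 higher. The 8 middle tumours ranged from 10.50 to 11.95 with a median of 11.55.

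**Figure D1:**
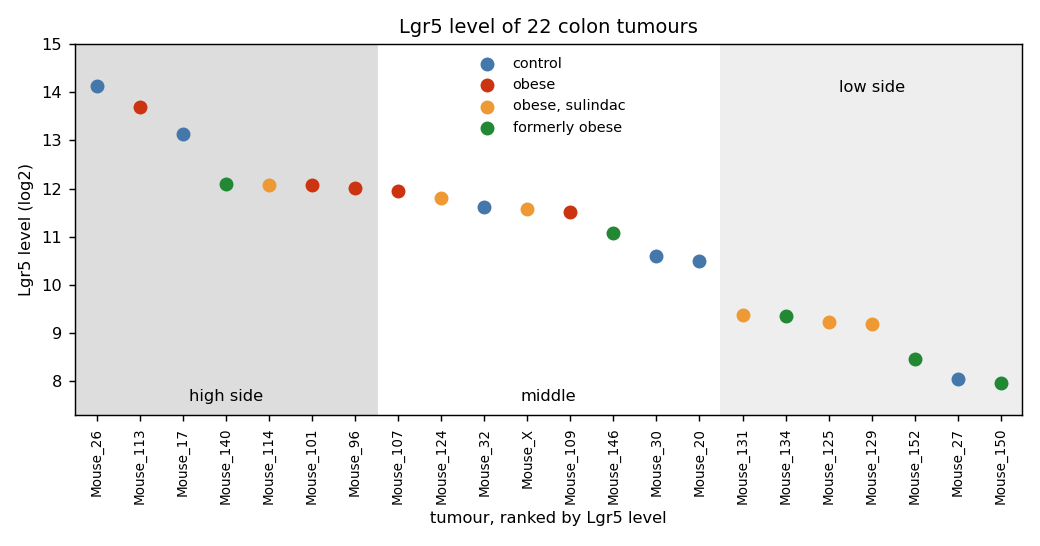
Log2 level of Lgr5 in each of the 22 tumours (vertical axis), ordered from the highest to the lowest (horizontal axis), with 1 point per tumour coloured by regimen and the sides shaded. The high side ends at 12.01, next to a middle tumour at 11.95, and the low side begins at 9.38, below a middle tumour at 10.50.

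The 4 regimens were not evenly spread over the sides. The high side held 2 control, 3 obese, 1 obese sulindac and 1 formerly obese tumour. The low side held 1 control, 0 obese, 3 obese sulindac and 3 formerly obese tumours. The middle held 3 control, 2 obese, 2 obese sulindac and 1 formerly obese tumour. Lgr5 ran from 8.04 to 14.12 in control tumours, from 11.51 to 13.69 in obese, from 9.18 to 12.08 in obese sulindac and from 7.96 to 12.09 in formerly obese tumours. Control tumours alone thus spanned almost the whole range, and the obese regimen was the one with no tumour on the low side.

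Between the sides, 84 of 22202 other probe sets differed at an adjusted p under 0.05 (limma, Benjamini-Hochberg over all of them), which is 0.378% of those tested. Of these, 53 were higher (0.239%) and 31 lower (0.14%) on the Lgr5-high side, and 78 of the 84 carried a gene symbol. Their differences ran from 0.55 to 4.07 log2 units in size, and their adjusted p from 0.0130 to 0.0487. Without adjustment, 3391 probe sets (15.3%) had a p under 0.05, 1790 of them higher (8.06%) and 1601 lower (7.21%). A difference above 0 was found for 48.9% and one below 0 for 50.8% of all probe sets. The ranges of both sides were fully separate for 37 of the 84, 24 higher and 13 lower. Over all probe sets tested, 60 (0.27%) had every high tumour above every low one, and 32 (0.144%) had every high tumour below.

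With regimen as a covariate in the same fit, 0 probe sets passed in limma (smallest adjusted p 0.138). All 84 kept their sign and an unadjusted p under 0.05, a level that 2147 of all probe sets (9.67%) reached. The 84 were selected by their p in these same tumours, so this does not measure how far they are independent of regimen. The number of calls also hung on single tumours. It was 6 without Mouse_140, 7 without Mouse_152, 8 without Mouse_125, 9 without Mouse_129, 22 without Mouse_96, 23 without Mouse_114, 25 without Mouse_113, 27 without Mouse_26 and 31 without Mouse_150. It rose to 214 without Mouse_131 and 278 without Mouse_101. A group of 6 probe sets passed in every one of the 14 fits that left out 1 tumour, among them Mmp10, Rgs16, Sdc1 and Ush1c. Every other call named in the following paragraphs was lost in at least 1 of those fits.

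**Figure D2:**
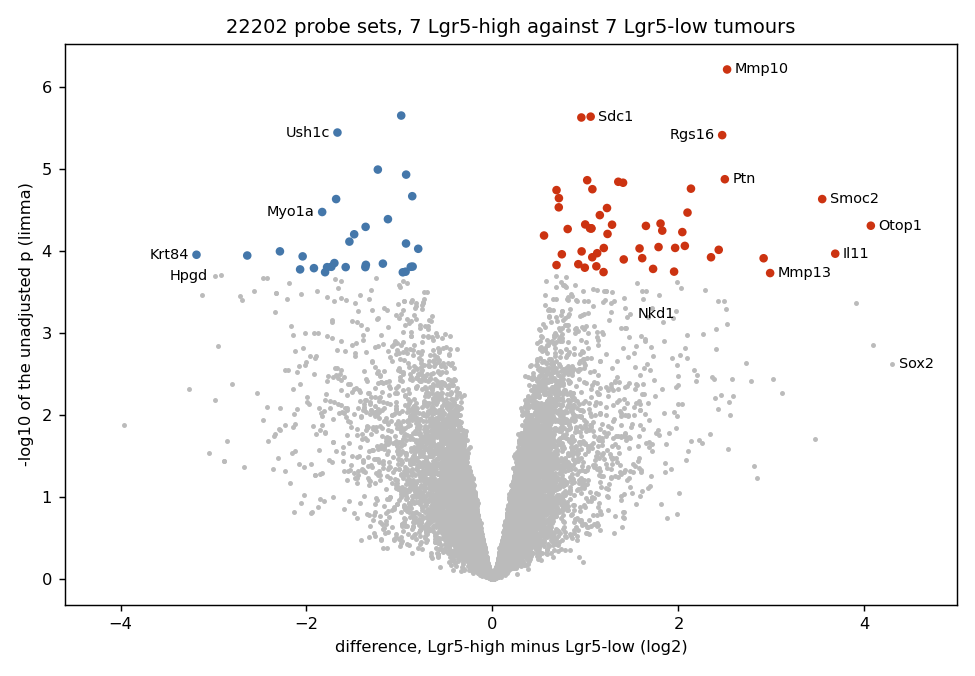
Difference between the sides (horizontal axis, Lgr5-high minus Lgr5-low, log2 units) against the size of the unadjusted limma p (vertical axis, -log10) for 22202 probe sets. The coloured points are the 53 higher (red) and 31 lower (blue) probe sets past the threshold. Sox2 lies far to the right at 4.30 without passing.

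Among crypt base genes, Smoc2 moved most. Smoc2 encodes a secreted matricellular protein and is a known companion of Lgr5 in crypt base stem cells. Its levels ran from 10.09 to 13.55 with a median of 11.72 on the high side, and from 6.69 to 9.63 with a median of 8.15 on the low side. All 7 Lgr5-high tumours therefore lay above every Lgr5-low tumour. The difference was 3.55 ± 0.59 log2 units (SE; 95% interval 2.28 to 4.81; adjusted p = 0.0270 in limma). The adjusted p reached 0.0776 when 1 tumour was left out, and 9 of 14 such fits still called it. Within regimens on both sides, Smoc2 differed by 5.18 in control (2 high and 1 low) and 5.08 in formerly obese tumours (1 and 3). In obese sulindac tumours (1 and 3) it differed by 1.63. As the sides did not overlap, these signs were fixed in advance and are no separate evidence.

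Of 25 measured members of the crypt base list, 20 had a difference above 0, 1 passed the test over all genes, and the median difference was 0.39, against -0.01 over all probe sets. At an unadjusted p under 0.05, 9 members were higher and 0 lower. Over all probe sets those shares were 8.06% and 7.21%, and 48.9% had a difference above 0. Over the 8 middle tumours only 11 of the 25 had slopes on Lgr5 above 0, against 51.4% of all probe sets. Phlda1, a pleckstrin-homology protein gene used as a stem cell marker, differed by 1.47 ± 0.37 (adjusted p = 0.0827). Igfbp4, which encodes a binding protein for insulin-like growth factors, differed by 1.45 ± 0.39 (adjusted p = 0.106), and the receptor gene Tnfrsf19 by 1.53 ± 0.43 (adjusted p = 0.116). These limma values missed the threshold. Ascl2, a transcription factor of crypt base stem cells, had a difference of 0.39 with an interval of -0.30 to 1.07. Genes of the reserve or plus-4 position did not pass either, and 5 of the 6 measured were above 0 (median 0.33). Bmi1 differed by 0.36 (-0.15 to 0.86) and Hopx, the 1 below 0, by -0.86 (-1.47 to -0.25). Rnf43, Olfm4, Ephb2 and Ly6a were not analysed here.

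None of the 11 other measured genes of the R-spondin system passed the test, and some had the opposite sign to Lgr5. Lgr4, the closest relative of Lgr5 and widely expressed in the crypt, lay between 13.47 and 15.17 on the high side and between 14.66 and 15.61 on the low side. Its difference of -0.82 ± 0.25 had the opposite sign to that of Lgr5 and did not pass (adjusted p = 0.138 in limma). Lgr6, the third member of the family, differed by -0.84 with an interval of -2.48 to 0.79, and by 0.17 with regimen as a covariate. Znrf3, one of the ligases, differed by 0.92 ± 0.38 (adjusted p = 0.265), and the WNT receptor gene Fzd5 by -1.20 ± 0.30 (adjusted p = 0.0820). The 4 genes of the R-spondins themselves differed by -0.08 to 0.06, and the median over the 11 genes was close to 0, at -0.06.

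Most WNT and beta-catenin target genes had higher means on the Lgr5-high side, although 0 of the 28 measured passed. Above 0 were 24 of the 28, with a median of 0.40, and 10 had an unadjusted p under 0.05, all higher. Of all probe sets 48.9% were above 0, and 8.06% were higher at that level. Nkd1, an intracellular inhibitor of the pathway, lay between 12.53 and 13.45 on the high side (median 13.19) and between 10.40 and 12.77 on the low side (median 11.62). The ranges overlapped by a small margin, and 6 of 7 high tumours lay above every low one. The difference was 1.48 ± 0.34 (adjusted p = 0.0650 in limma). Wif1, a secreted WNT inhibitor, differed by 1.75 ± 0.54 (adjusted p = 0.148), and Notum, an extracellular deacylase that inactivates WNT proteins, by 1.02 ± 0.47 (adjusted p = 0.320). The ligand gene Wnt10a came near the threshold, at 1.56 ± 0.33 (adjusted p = 0.0541). Axin2, the most widely used target gene of the pathway, differed by only 0.25 (interval -0.24 to 0.73). Sp5, Cd44 and Myc, other known targets, differed by 0.39, 0.39 and 0.35, each with an interval that includes 0. Sox9 differed by 0.69 (0.11 to 1.27, adjusted p = 0.243), and 0 of 7 high tumours exceeded every low one.

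Cell cycle genes had slightly lower means on the Lgr5-high side, and none of the 29 measured passed. Mki67, a marker of dividing cells, lay between 13.52 and 14.77 on the high side and between 13.79 and 15.01 on the low side, a difference of -0.38 (interval -0.84 to 0.07). Birc5, which encodes survivin, differed by -0.63 ± 0.21 (adjusted p = 0.169 in limma). In the cell cycle list 21 of 29 members were below 0, against 50.8% of all probe sets, and the median difference was -0.23. It was -0.08 without Mouse_150, -0.14 without Mouse_17 and -0.15 without Mouse_131. Over the 8 middle tumours the slopes on Lgr5 lay the other way, above 0 for 29 of 29 members (median 0.33), against 51.4% of all probe sets.

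**Figure D3:**
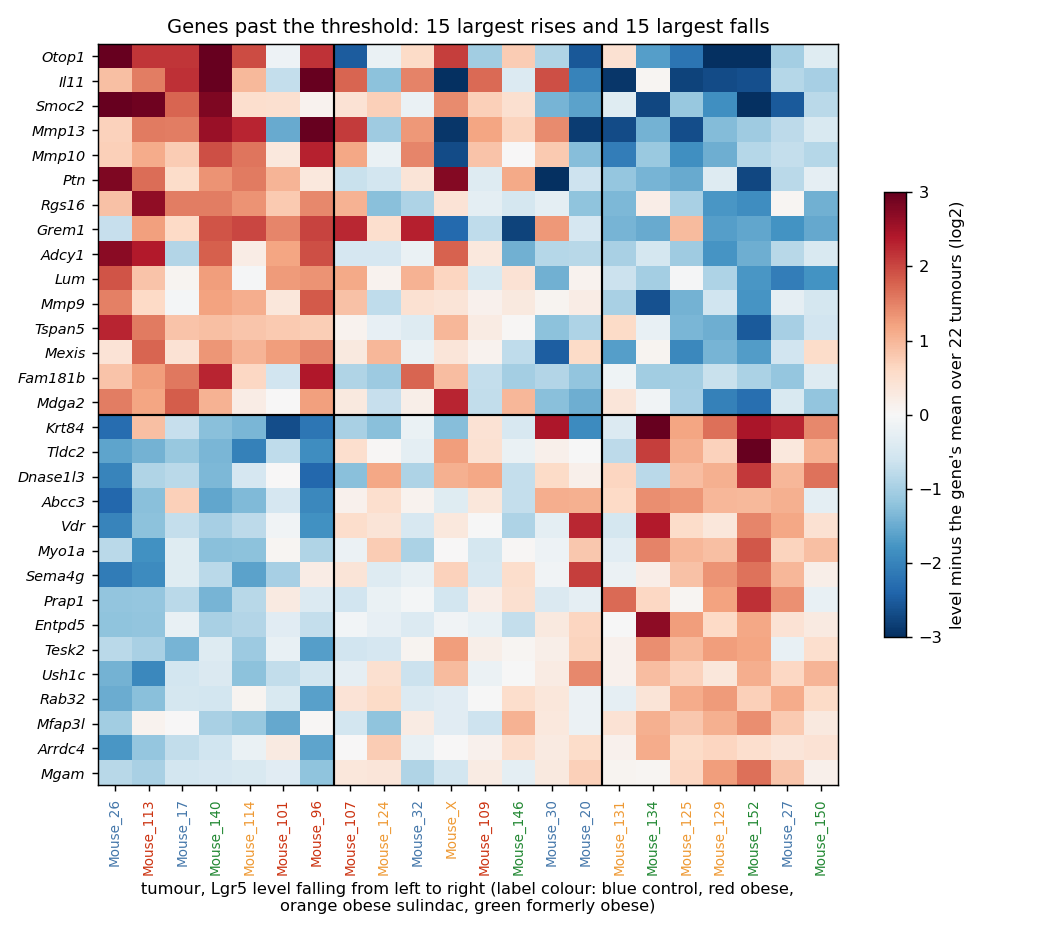
Level of the 15 largest rises (upper rows) and 15 largest falls (lower rows) past the threshold in each of the 22 tumours, as the log2 level minus that gene's mean over 22 tumours. Tumours are in columns with Lgr5 falling from left to right, vertical lines separate the high side, the middle and the low side, and the colour scale ends at -3 and 3. In the 8 middle tumours Grem1 spans 7.86 to 12.96, more than within either side.

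Otop1, which encodes a proton channel, had the largest difference among the called probe sets. It lay between 11.21 and 15.52 (median 13.51) on the high side and between 6.87 and 11.82 (median 9.71) on the low side. The difference was 4.07 ± 0.73 (adjusted p = 0.0340 in limma), and 1 high tumour lay inside the low range. Il11, a cytokine gene of the interleukin-6 family, lay between 7.71 and 12.85 (median 9.96) on the high side and between 5.50 and 8.49 (median 5.80) on the low side. Its difference was 3.69 ± 0.71 (adjusted p = 0.0443). All 7 high tumours thus lay above the array medians, and 6 of them above every low tumour.

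Ptn, which encodes the growth factor pleiotrophin, was higher in all 7 high tumours than in any low one. Its levels ran from 14.17 to 16.65 against 11.13 to 13.58, a difference of 2.50 ± 0.40 (adjusted p = 0.0266 in limma). Rgs16, a regulator of G-protein signalling, showed the same separation, with 10.62 to 12.49 against 7.98 to 10.03. It differed by 2.47 ± 0.35 (adjusted p = 0.0142) and was called in each of the 14 fits without 1 tumour. Adcy1, an adenylyl cyclase gene, differed by 2.35, Tspan5, a tetraspanin gene, by 2.07, and Mdga2, which encodes a membrane-anchored adhesion protein, by 1.95. The long non-coding RNA Mexis differed by 2.04 and Fam181b by 1.96. Chosen after its values were seen, Pdgfa, a platelet-derived growth factor gene, rose by 1.73 ± 0.35 (adjusted p = 0.0473).

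BMP signalling genes included 1 call among 27 measured members, of which 18 were above 0 (median 0.34). At an unadjusted p under 0.05, 6 members were higher and 2 lower. Of all probe sets 48.9% were above 0, and 0.239% were called higher. At that unadjusted level 8.06% were higher and 7.21% lower. Grem1, which encodes gremlin, a secreted antagonist of BMP ligands, lay between 9.94 and 12.67 (median 12.09) on the high side. On the low side it lay between 8.85 and 11.58 with a median of 9.09. In the low group 6 tumours were at or below 9.24 and Mouse_125 stood alone at 11.58, inside the range of the high side. The difference was 2.43 ± 0.47 (adjusted p = 0.0435 in limma). Bmp7, a ligand gene, differed by 1.64 ± 0.42 (adjusted p = 0.0875) and Smad5, a signal transducer of the pathway, by 0.75 ± 0.17 (adjusted p = 0.0619), and neither passed.

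Among the calls were 4 genes of matrix metalloproteinases, enzymes that degrade the extracellular matrix. Their share of the measured family was not counted, and 0.239% of all probe sets tested were called higher. Mmp10, the stromelysin-2 gene, lay between 13.82 and 15.81 (median 14.60) on the high side and between 11.42 and 12.79 (median 12.38) on the low side, with no overlap. The difference was 2.52 ± 0.31 (interval 1.86 to 3.18; adjusted p = 0.0130 in limma), among the smallest p of all probe sets. Mmp13, a collagenase gene, lay between 11.47 and 16.39 against 10.30 to 12.54, and the tumour of Mouse_101 was the 1 high tumour inside the low range. Its difference was 2.99 ± 0.61 (adjusted p = 0.0487), and the call held in only 1 of 14 fits that left out a tumour. Mmp9, a gelatinase gene that neutrophils also express, lay between 9.63 and 11.53 against 7.08 to 9.41 and differed by 2.10 ± 0.36 (adjusted p = 0.0326). Mmp12, the macrophage elastase gene, chosen here after its values were seen, differed by 1.65 ± 0.30 (adjusted p = 0.0340). Mmp3 and Mmp14, further members of the family from the list of epithelial-mesenchymal transition genes, differed by 1.82 and 0.76 and did not pass.

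The promoters of Mmp10, Mmp12, Mmp13 and the cytokine gene Il11 carry a match to TGANTCA, the letters recognised by AP-1 transcription factors, and are shown because these 4 genes were all called higher. The motif was chosen after the genes were seen. It reads the same on both strands and was searched in the 250 bases before each gene's start in RefSeq sequence (GRCm38.p6, from another strain than FVB/N). Of the 53 higher probe sets 40 matched a gene with such a window, and 5 of these 40 held the motif (12.5%: Cbarp, Il11, Mmp10, Mmp12 and Mmp13). Of the 31 lower ones 22 had a window and 0 held it, and among all 27025 genes with a window 7.82% held it. Mmp10, Mmp12 and Mmp13 are members of 1 family close together on chromosome 9, so their matches need not be independent. Mmp9, the other called metalloproteinase gene, was not among the 5 with the motif. Capitals mark the match, which begins 63 bases before the start in Mmp10, 44 in Mmp12, 35 in Mmp13 and 98 in Il11. Mmp12 and Il11 each have 2 windows in the table, and the window with the match is shown.
Mmp10, chr9:7502092-7502341 (plus strand): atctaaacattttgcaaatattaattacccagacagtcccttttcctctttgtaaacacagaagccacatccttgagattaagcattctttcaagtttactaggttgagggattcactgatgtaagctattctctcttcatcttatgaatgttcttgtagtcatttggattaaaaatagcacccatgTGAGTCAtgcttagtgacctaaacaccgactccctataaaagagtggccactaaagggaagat
Mmp12, chr9:7347124-7347373 (plus strand): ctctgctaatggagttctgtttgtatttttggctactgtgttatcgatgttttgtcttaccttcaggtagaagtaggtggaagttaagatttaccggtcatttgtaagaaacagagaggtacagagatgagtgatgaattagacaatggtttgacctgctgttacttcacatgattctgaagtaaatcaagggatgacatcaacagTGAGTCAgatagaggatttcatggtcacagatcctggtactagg
Mmp13, chr9:7272264-7272513 (plus strand): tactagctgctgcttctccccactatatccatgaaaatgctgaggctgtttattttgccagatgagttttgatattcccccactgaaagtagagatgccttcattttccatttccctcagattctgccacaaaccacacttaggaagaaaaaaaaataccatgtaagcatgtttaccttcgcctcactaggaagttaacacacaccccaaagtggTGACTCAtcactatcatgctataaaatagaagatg
Il11, chr7:4778142-4778391 (minus strand): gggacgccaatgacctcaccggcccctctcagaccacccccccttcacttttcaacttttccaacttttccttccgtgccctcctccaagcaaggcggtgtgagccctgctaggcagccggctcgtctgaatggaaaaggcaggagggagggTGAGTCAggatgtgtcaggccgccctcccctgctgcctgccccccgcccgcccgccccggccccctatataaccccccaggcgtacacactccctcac
The match reads TGAGTCA in Mmp10, Mmp12 and Il11 and TGACTCA in Mmp13. It is a description of these letters and not a measurement of binding.

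Lum, which encodes the collagen-binding proteoglycan lumican, lay between 8.76 and 10.68 (median 10.05) against 6.71 to 8.76 (median 7.77), so the sides met at 8.76 without crossing. Lum differed by 2.13 ± 0.35 (adjusted p = 0.0266 in limma). Plod1 and Plod2, genes of lysyl hydroxylases that modify collagen, rose by 1.12 ± 0.22 (adjusted p = 0.0469) and 1.23 ± 0.21 (adjusted p = 0.0314). Pdpn, the podoplanin gene of fibroblasts and lymphatic endothelium, rose by 0.99 ± 0.20 (adjusted p = 0.0469). Plod1, Plod2 and Pdpn were chosen after their values were seen. Of 23 measured genes of the fibroblast and matrix list 17 were above 0 and 1 passed. Of all probe sets 48.9% were above 0, and 0.239% were called higher. The median of the fibroblast and matrix list was 0.41, and it was 0.20 without Mouse_134 and 0.63 without Mouse_125. The mean level of that list lay between 10.01 and 10.61 on the high side and between 9.12 and 11.10 on the low side, so the low side spanned the high one. Among them Fbln1, Fn1 and Sparc, which encode matrix proteins, differed by 1.54, 1.29 and 0.99 and did not pass (adjusted p = 0.162, 0.117 and 0.117).

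In the list of epithelial-mesenchymal transition genes 18 of 21 members were above 0, with a median of 0.92, but 0 passed. At an unadjusted p under 0.05, 11 were higher and 0 lower. Of all probe sets 48.9% were above 0, and 8.06% were higher at that level. Inhba, which encodes a subunit of activin, came closest at 1.99 ± 0.42 (adjusted p = 0.0539 in limma), with 11.19 to 14.46 on the high side and 10.49 to 12.29 on the low side. Wnt5a, a ligand gene often expressed by stroma, differed by 0.92 ± 0.23 (adjusted p = 0.0791). Of 15 smooth muscle genes 14 were below 0 (median -0.31) and 0 passed. That median was -0.064 without Mouse_134, -0.53 without Mouse_150 and -0.038 with regimen as a covariate, and 12 of the 15 had slopes above 0 over the 8 middle tumours. Of 18 endothelial genes 14 were above 0 (median 0.27). In bulk tissue, fewer cells of a type and less RNA per cell cannot be told apart.

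**Figure D4:**
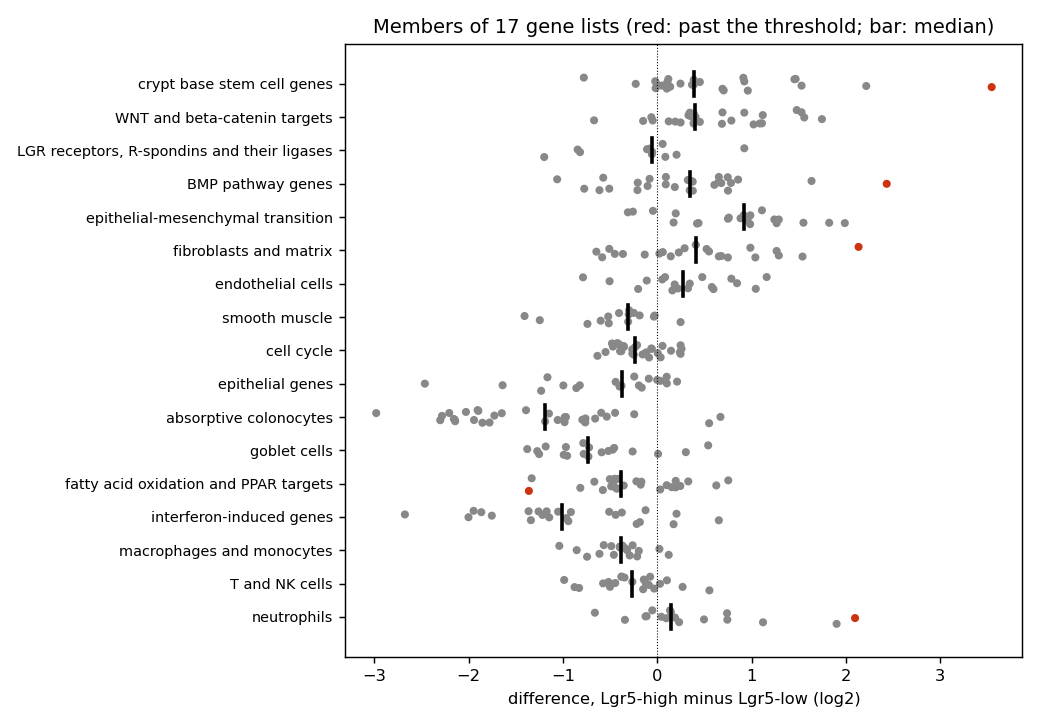
Difference between the sides (horizontal axis, Lgr5-high minus Lgr5-low, log2 units) for each measured member of 17 gene lists, 1 point per gene. The bar is the list's median and red marks members past the threshold. Medians ran from -1.19 for absorptive colonocytes to 0.92 for epithelial-mesenchymal transition.

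Ush1c, Myo1a and Mgam, whose products work in the brush border of absorptive cells, were among the lower calls. Ush1c encodes harmonin, a scaffold that joins the protocadherins at the tips of microvilli, and its levels were 7.16 to 8.66 (median 8.35) on the high side and 9.21 to 10.18 (median 9.79) on the low side. There was no overlap, and the difference was -1.67 ± 0.24 (interval -2.17 to -1.16; adjusted p = 0.0142 in limma). Within the control tumours (2 high and 1 low) it was -1.60. In formerly obese and obese sulindac tumours (1 high and 3 low each) it was -1.45 and -1.62. Without overlap these signs were fixed in advance, so they are no separate evidence. Myo1a, the myosin that ties the microvillar actin bundle to the membrane, lay between 6.99 and 8.87 against 8.50 to 10.66 and fell by 1.83 on the log2 scale (adjusted p = 0.0326). Mgam, the maltase-glucoamylase of the brush border, lay between 10.14 and 10.99 against 11.41 to 12.99, again without overlap, and its difference was -1.36 ± 0.25 (adjusted p = 0.0340).

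Other lower calls differed in what they encode. Vdr, which encodes the vitamin D receptor, lay between 8.28 and 10.16 (median 9.27) on the high side and between 9.73 and 12.63 (median 10.81) on the low side. Its difference was -1.92 ± 0.39 (adjusted p = 0.0469 in limma), and 6 of 7 high tumours were below every low one. Abcc3, an exporter of bile acid and drug conjugates, differed by -2.04 ± 0.40 (adjusted p = 0.0443), with the control tumour of Mouse_17 at 13.16 inside the range of the low side. Entpd5, a nucleoside diphosphatase gene, differed by -1.70 with no overlap, and the nuclease gene Dnase1l3 by -2.07. Ehhadh, which encodes the bifunctional enzyme of peroxisomal fatty acid oxidation, differed by -1.36 ± 0.27 (adjusted p = 0.0469). It was the 1 call among 26 measured genes of fatty acid oxidation, of which 17 were below 0 (median -0.39, and -0.18 without Mouse_134). Of all probe sets 50.8% were below 0, and 0.14% were called lower.

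The largest fall was that of Krt84, a keratin gene known from hair and nail. It lay between 4.18 and 7.74 (median 5.46) on the high side and between 6.43 and 10.97 (median 8.50) on the low side, a difference of -3.18 ± 0.62 (adjusted p = 0.0443 in limma). Tldc2 followed at -2.64 ± 0.51, with 11.07 in the low tumour of Mouse_152 and 5.19 to 6.46 across the high side. Sema4g, a semaphorin gene, and Prap1 differed by -1.80 and -1.78. The kinase gene Tesk2, the small GTPase gene Rab32, Mfap3l and the arrestin-domain gene Arrdc4 differed by -1.68, -1.54, -1.49 and -1.37, and Mfap3l had no overlap between the sides.

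Classical colonocyte markers had lower means on the Lgr5-high side, yet 0 of 33 measured members of the absorptive list passed. Below 0 were 31 of 33, the median was -1.19, and 17 were lower and 1 higher at an unadjusted p under 0.05. Of all probe sets 50.8% were below 0, with 7.21% lower and 8.06% higher at that level. Hpgd, which degrades prostaglandins, came closest with -2.98 ± 0.62 (adjusted p = 0.0516 in limma). The high tumours lay between 8.51 and 12.88 and the low ones between 11.82 and 15.24, and Mouse_17 was the 1 high tumour within the low range. Plac8, the sulphate transporter gene Slc26a2 and the microvillar protocadherin gene Cdhr5 differed by -1.78, -2.21 and -1.73 (adjusted p = 0.0562, 0.0562 and 0.0708). Slc26a3, the chloride and bicarbonate exchanger of the colon surface, ranged from 5.79 to 8.36 on the high side but from 6.84 to 14.30 on the low side, and its difference of -2.16 had an interval of -4.06 to -0.25. Car4 and Krt20, further markers of surface cells, differed by -2.30 and -2.15, and Car1 by -1.85 with an interval of -4.14 to 0.43. The low tumour of Mouse_134 had the highest Slc26a3 and Car4 (14.30 and 13.35), and without it they differed by -1.36 and -1.43. Without Mouse_26 the difference of Car1 was -1.15. The mean level of the absorptive list lay between 8.55 and 10.81 on the high side and between 9.87 and 13.23 on the low side. That list lay lower beside the calls named above, and its part in them was not tested.

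Among the epithelial genes 15 of 19 measured members were below 0 (median -0.38), 9 of them at an unadjusted p under 0.05, and 0 passed. Of all probe sets 50.8% were below 0, and 7.21% were lower at that level. The list's mean level was 13.15 to 14.07 on the high side and 13.58 to 14.70 on the low side. Epcam itself differed by -0.16 (interval -0.44 to 0.12). Krt8, a keratin gene of simple epithelia, lay between 14.84 and 16.23 on the high side and between 15.98 and 16.86 on the low side, and its difference was -0.82 ± 0.24 (adjusted p = 0.128 in limma). Lgals4, a galectin gene, lay between 15.29 and 16.29 against 16.35 to 17.49 without overlap, and its difference was -0.996 ± 0.21 (adjusted p = 0.0560). Phgr1, the homeobox gene Cdx1 and its relative Cdx2 differed by -2.46, -1.64 and -1.16. Cdx2 reached 12.75 in the high tumour of Mouse_101 and was at or below 8.70 in the other 6, so its interval of -3.17 to 0.84 is wide. Its difference was -1.90 without Mouse_101, -0.60 without Mouse_134 and -0.77 without Mouse_114. Goblet cell genes were below 0 in 16 of 19 cases (median -0.73), with 0 calls. That median was -0.40 without Mouse_113, -0.42 without Mouse_134 and -0.21 with regimen as a covariate. Muc2, the main secreted mucin, differed by -0.47 (interval -1.68 to 0.74). Of 20 deep secretory and Paneth-type genes 12 were below 0 and 0 passed (median -0.35), and leaving out 1 tumour moved the median between -0.70 without Mouse_101 and -0.12 without Mouse_152. Over the 8 middle tumours 14 of the 19 goblet and 16 of the 20 deep secretory genes had slopes on Lgr5 above 0, the other direction, against 51.4% of all probe sets. Reg4, a deep secretory marker, differed by 0.53, Chga of enteroendocrine cells by 0.65 and Dclk1 of tuft cells by 0.08, each with an interval that includes 0. Anxa1 and Clu, used as markers of fetal-like states, differed by -0.10 and 0.82, also with intervals that include 0.

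Interferon-induced genes were lower on average, and 0 of 24 passed. Below 0 were 21 of the 24, with a median of -1.01 and 13 lower at an unadjusted p under 0.05 against 0 higher. Of all probe sets 50.8% were below 0, with 7.21% lower and 8.06% higher at that level. Gbp2, a guanylate-binding protein gene, lay between 8.32 and 11.44 (median 9.63) on the high side and between 10.02 and 13.33 (median 12.05) on the low side. It differed by -2.001 ± 0.55 (adjusted p = 0.111 in limma). Ciita, the activator of MHC class II genes, differed by -1.17 ± 0.30 (adjusted p = 0.0915), Oasl1 by -0.92 and the transcription factor gene Irf1 by -1.22. Ido1, a tryptophan-degrading enzyme, varied most, from 4.83 to 10.99 on the high side and from 6.14 to 12.67 on the low side (difference -2.68 ± 1.21, adjusted p = 0.306). The list's mean level was 7.09 to 9.49 against 8.53 to 10.45. Beyond the list, and chosen after their values were seen, Trafd1, a negative regulator of innate immune signalling, and Lag3, an inhibitory receptor of T cells, did pass. Trafd1 fell by 1.23 ± 0.19 (adjusted p = 0.0266), with all 7 high tumours below every low one. Lag3 differed by -0.93 ± 0.15 (adjusted p = 0.0266), with means of 4.996 ± 0.23 on the high side and 5.92 ± 0.28 on the low side (SD), both below the array medians.

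Immune cell markers had medians nearer 0. Of all probe sets 48.9% were above 0 and 50.8% below, and 0.239% were called higher. Macrophage and monocyte genes were below 0 in 16 of 18 cases (median -0.38), with list levels of 8.11 to 9.25 on the high side and 8.47 to 9.84 on the low side. Over the 8 middle tumours 11 of these 18 had slopes on Lgr5 above 0 (median 0.089), against 51.4% of all probe sets. T and NK cell genes were below 0 in 17 of 21 cases (median -0.26, and -0.16 without Mouse_125 or Mouse_152), with 5.44 to 6.51 against 5.86 to 6.67. Neutrophil genes were above 0 in 12 of 17 cases (median 0.14), Mmp9 being the 1 call, with 7.37 to 10.37 against 7.41 to 8.98. The sign of that median rested on 1 tumour, since it was -0.035 without Mouse_114 and as high as 0.43 without Mouse_26. The part of these cells in the calls was not tested. In the B and plasma cell list 12 of 15 genes were below 0 (median -0.58, -0.35 without Mouse_125 and -0.29 without Mouse_152), but its 1 call, Sdc1, was higher. Sdc1 encodes syndecan-1, a proteoglycan of epithelial as well as plasma cells, and lay between 15.24 and 15.95 against 14.19 to 14.81, a difference of 1.06 ± 0.14 (adjusted p = 0.0130 in limma) that was called in each fit without 1 tumour. Inflammatory genes were split, with 11 of 26 above 0, Il11 as the 1 call and Il1b, a central inflammatory cytokine, at 0.65 (interval -0.90 to 2.21).

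The 8 middle tumours were not used by the contrast and gave a separate reading of the same genes against the Lgr5 level. Over these 8, 0 probe sets passed (limma, slope on Lgr5; 0% of those tested), and 825 (3.72%) had an unadjusted p under 0.05. Of the 84 called probe sets 65 had a slope of the same sign as their difference (41 of 53 higher and 24 of 31 lower), against 53.1% of all 22202. With an unadjusted p under 0.05 there were 7 of the 84 in the same direction and 0 in the other. Smoc2, Lum and Tspan5 were among those 7, with slopes of 1.58 ± 0.40, 0.95 ± 0.42 and 0.86 ± 0.34 log2 units per log2 unit of Lgr5 (SE). Mmp9 and Sdc1, separated fully between the sides, had slopes of only 0.06 and 0.02, and Tldc2 and Rab32 had slopes of the other sign (0.28 and 0.05). The middle tumours cover only 10.50 to 11.95 in Lgr5, so slopes within them are imprecise.

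**Figure D5:**
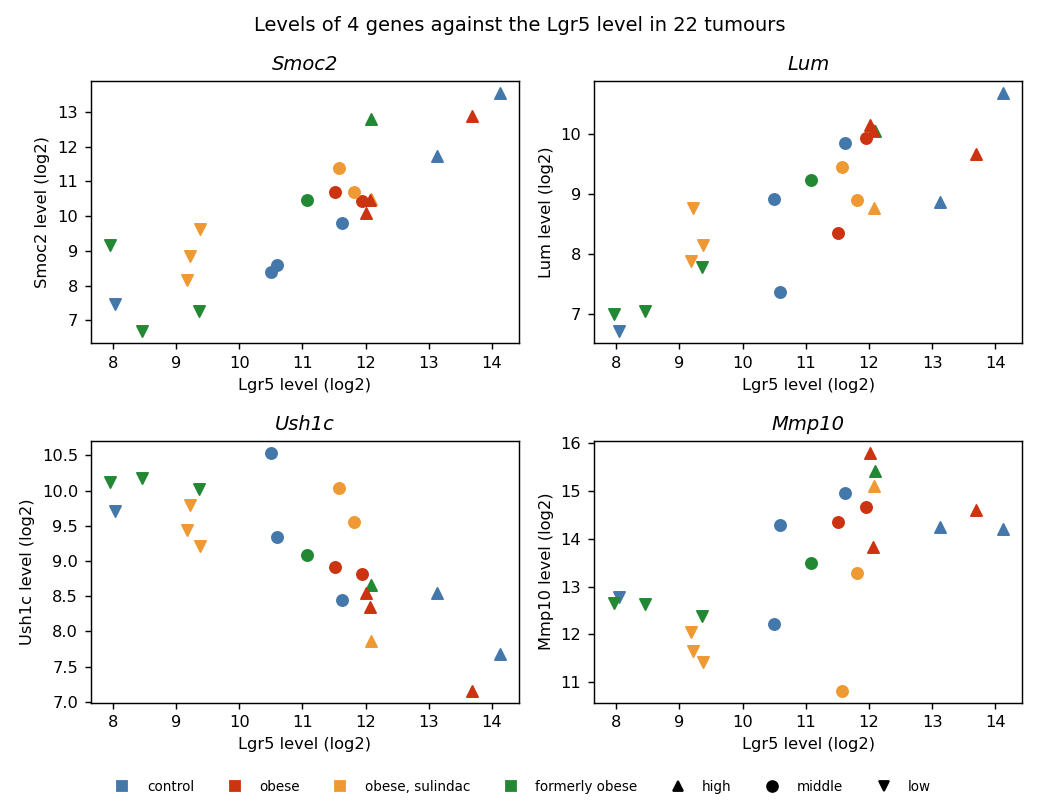
Log2 level of Smoc2, Lum, Ush1c and Mmp10 (vertical axes) against the log2 level of Lgr5 (horizontal axes) in 22 tumours, coloured by regimen, with the side given by the marker shape. Smoc2 and Lum also had an unadjusted p under 0.05 over the 8 middle tumours, and in Mmp10 the middle tumours cover nearly the full range, from 10.82 to 14.97.

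Over all 22 tumours 205 probe sets (0.923%) had a slope on the Lgr5 level past the threshold in limma, 111 rising and 94 falling with Lgr5, and 59 of the 84 were among them. These fits reuse the tumours of both sides. The named genes with the steepest rising slopes among those past the threshold were Sox2 (1.15 log2 units per unit of Lgr5), Thbs2 (1.07), Smoc2 (0.91), Otop1 (0.89) and Irx2 (0.67). Sox2, a transcription factor of the foregut and of stem cells, ranged from 6.28 to 15.19 on the high side and from 4.94 to 9.64 on the low side. The 3 tumours highest in Lgr5 had Sox2 at 13.01 to 15.19, and Mouse_96 had it at 6.28. The spread within the high side was wide, and the difference of 4.30 ± 1.18 did not pass between the sides (adjusted p = 0.114). Thbs2, which encodes the matrix protein thrombospondin-2, showed a similar order with 17.17, 15.40 and 14.60 in the 3 tumours highest in Lgr5, and a difference of 3.91 ± 0.88 (adjusted p = 0.0562). The steepest falling slopes were those of Bcl2l15 (-0.74), Ifit1bl1 (-0.70), Krt84 (-0.70), the bile acid transporter gene Slc10a2 (-0.66) and the lipid enzyme gene Cds1 (-0.60). With regimen in this slope fit 51 probe sets passed, and 19 of the 84 were among them. For Smoc2 the adjusted p was 0.000288 without and 0.00119 with regimen.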

How the data were processed

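Total RNA of 22 colon tumours was labelled and hybridised to Clariom S arrays, per the labels' protocols. The deposited values are log2 levels. Transcriptome Analysis Console 4.0 is the tool listed in the submitters' processing notes. Summarization, normalization and log base are not stated in the labels or headers used here, and base 2 was read from the range of 3.34 to 19.49. Of 22203 probe sets 19572 carried 1 gene symbol and 2631 are unnamed here, and a gene with several was represented by the one with the highest mean. Lgr5 has 1 probe set.

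The 7 highest and 7 lowest tumours in Lgr5 were compared with limma 3.58.1 (lmFit and eBayes, R 4.3.3, 12 residual degrees of freedom), two-sided, with Benjamini-Hochberg adjustment over 22202 probe sets and a threshold of 0.05. All probe sets entered, with no filter. Errors after ± are SDs for levels and SEs for differences, and intervals are 95%. Nothing beyond the mouse separates replicates. The members, the 37 gene lists and the rule for named genes were chosen with earlier results of these data known. That rule takes the 15 largest called differences per direction, a fixed set, up to 4 genes of smallest p per described list and the 5 steepest slopes per direction. A list's level is the mean over its measured members, and lists share genes. The fit was tested on simulated data with known shifts and noise drawn separately for each probe set. That check did not cover unequal regimens or sides set by a measured gene. Alternatives changed the number of tumours per side, the covariate, the arrays, the filter, the variance model and the scaling, or left out 1 tumour or the obese regimen.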

Additional observations from a re-analysis of the deposited data

Results flagged for a closer look

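For 103 genes each side of 7 tumours was checked for a single tumour that stood far from the others relative to the range of its side, and 10 of 206 sides had one. Chance alone marks about 1 in 20 such groups, so 10 of 206 is about that rate. On the high side, Rgs16 was at 12.49 in Mouse_113, Hpgd at 12.88 in Mouse_17, Cdx2 at 12.75 in Mouse_101, Dclk1 at 7.88 in Mouse_26 and Lef1, lowest of its side, at 11.64 in Mouse_140. On the low side, Grem1 was at 11.58 in Mouse_125 and Inhba at 12.29 in Mouse_27. The formerly obese tumour of Mouse_134 accounted for 3 of the 10, with Phlda1 at 15.79, Chga at 9.85 and, lowest of its side, Igfbp4 at 11.76. Grem1 and Rgs16 are called genes. Grem1 differed by 2.43 with Mouse_125 included.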

How the results depend on the processing

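The number of called probe sets, 84 as reported, moved with the size of the sides: it was 311 for 5 against 5 tumours (138 higher and 173 lower), 30 for 9 against 9 and 3 for the upper 11 against the lower 11. It was 205 with Lgr5 as a continuous level over 22 tumours, 51 with regimen added to that fit, 282 with all 22 arrays in 3 groups, 195 among probe sets at or above the median level, 0 with regimen as a covariate, 0 over the 8 middle tumours, and 8 without the obese regimen, an alternative added after seeing the data. Leaving out 1 tumour gave 6 to 278. The cause of these shifts was not tested, and several of these fits also differ in their number of tumours or probe sets. The number of calls stayed at 82 to 89 with another variance model, quantile normalization or a common array median. All 84 kept their sign in every one of these fits that tested them, other than that over the 8 middle tumours. The fits with kept signs reuse tumours in which the 84 were selected, so those signs are no separate evidence.

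Signs that turned in named genes over the 8 middle tumours (slopes, cause not tested) were Tldc2 0.28, Rab32 0.050, Mki67 0.44, Birc5 0.43, Slc26a3 0.56, Car4 0.19, Muc2 0.47, Gbp2 0.67, Bcl2l15 1.17, Ifit1bl1 0.12, Znrf3 -0.073, Ascl2 -0.31, Axin2 -0.041, Sox9 -0.40, Cd44 -0.20, Myc -0.54, Phlda1 -0.030, Bmi1 -0.11 and Angptl4 -0.044. With regimen as a covariate Lgr6 was at 0.17, Anxa1 at 0.12 and Muc2 at 0.53, and in the continuous fit with regimen Ascl2 was at -0.018, Muc2 at 0.033 and Il1b at -0.065. Without the obese regimen Lgr6 was at 0.17 and Muc2 at 0.14. Leaving out 1 tumour moved Anxa1 between -0.26 and 0.072, Chga between -0.096 and 1.28 and Dclk1 between -0.16 and 0.55. In the exact permutation test over 3432 assignments the smallest two-sided p possible is 0.000583 (unadjusted). Any gene without overlap between the sides reaches it, Smoc2 and Mmp10 among them, and 92 of all probe sets tested had no overlap. No paired analysis was possible because the groups share no replicate numbers. Genes such as Lag3, at levels below the array medians, have no background level here to be judged against.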
